A study of Chlorella sp. with 12 samples.

Results

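The comparison described here is that of untreated *Chlorella* sp. TLD6B cultures on day 18 (CK18) with untreated cultures on day 0 (CK0), which asks which functions change with the age of a culture that received neither NaCl nor PEG-6000. *Chlorella* sp. TLD6B is a green microalga isolated from desert soil. The libraries compared were picked by their labels and are 4 of the 12 of the study, 2 for CK0 and 2 for CK18. The comparison itself and the gene lists below were chosen with earlier results of these data known. The other 8 libraries, 2 for each group, are from day 18 under 0.1 M NaCl (Nacl1), 0.8 M NaCl (Nacl2), 0.05 g/mL PEG-6000 (PEG1) or 0.1 g/mL PEG-6000 (PEG2). They entered the same fit and the estimate of the spread. All groups share 1 strain, Bold basal medium (BBM), a light-dark cycle and inoculation with cells in the logarithmic growth phase. The labels give no hour of collection, and the groups are bulk cells, so that fewer cells of one state and less RNA per cell cannot be told apart. The study describes the 2 libraries of a group as biological replicates, and the p-values measure the spread between them.

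A unigene is the representative of a cluster of transcripts that were assembled without a genome, so that no genome position can be given. Of 155503 unigenes, 131623 were annotated, and 47032 of these carried a KO ID, the identifier of a group of proteins with the same function in the KEGG database. The unigenes fell on 3282 KO IDs, with a median of 10 unigenes for each. Expression was given as FPKM, the fragments of a unigene divided by its length and by the number of fragments that a library had mapped. FPKM were summed over the unigenes of each KO ID, and these KO sums are the measure used below. FPKM in the text are as deposited, while log2 fold changes are CK18 minus CK0 after scaling between libraries, with 0.1 added before log2 was taken. A KO sum was called higher (it rose) or lower (it fell) on day 18 if its Benjamini-Hochberg adjusted p by limma was under 0.05 and its absolute log2 fold change was at least 1. Errors are standard errors (SE) of the log2 fold change, with 2 libraries in each group.

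An algal culture starts from a few dividing cells in fresh medium and grows until light and nutrients become limiting. Dividing cells copy their DNA, assemble the spindle and turn over cell cycle proteins through the proteasome. Carbon is fixed in the chloroplast, whose proteins are made in part on ribosomes of bacterial type inside the chloroplast and in part on ribosomes in the cytosol. Starch and triacylglycerol are the main stores of carbon in *Chlorella*.

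The repertoire of the libraries differed between the days before any function was compared. The CK0 libraries listed 92179 and 88709 unigenes with an FPKM above 0, and the CK18 libraries 72356 and 78382. The summed FPKM were 2.69e+06 and 2.50e+06 in the CK0 libraries and 3.60e+06 and 3.74e+06 in the CK18 libraries. The 100 unigenes with the highest values held 38.8% and 37.2% of the FPKM in CK0 and 43.2% and 43.9% in CK18. Unigenes whose best hit among known proteins (the NR database) was not from a green alga held 5.33% in CK0 replicate 1 and 2.78% in replicate 2, against 2.09% and 2.0% in the CK18 libraries. In the other 8 libraries this share was between 1.88% and 2.90%, so that CK0 replicate 1 stood apart. Unigenes under 500 bp held 72.4% and 71.0% of the FPKM in CK0 and 78.3% and 78.2% in CK18. The part of these differences in the results was not tested beyond the values given beside them.

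**Figure D1:**
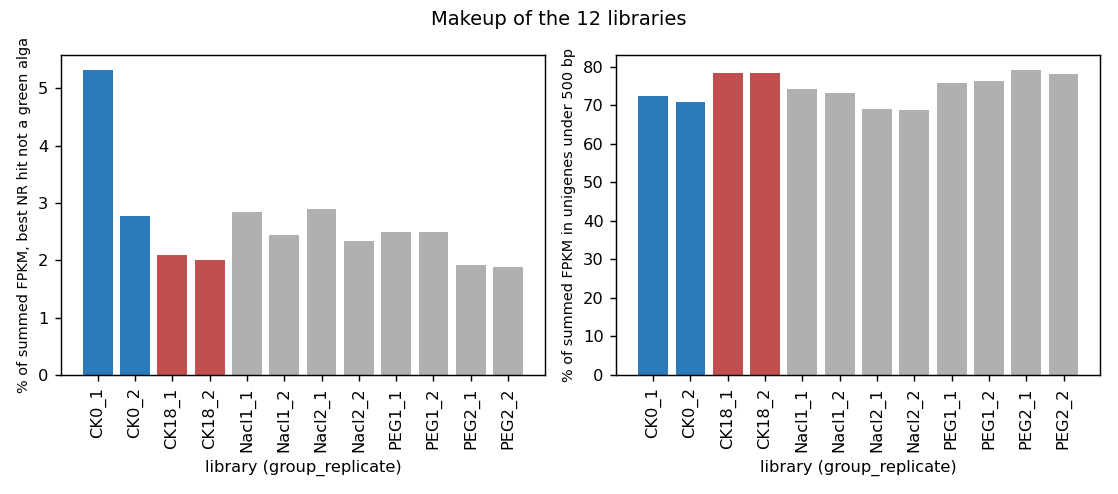
Makeup of the 12 libraries. Bars give, for each library, the % of the summed FPKM in unigenes whose best NR hit is not a green alga (left) and in unigenes under 500 bp (right), with CK0 in blue, CK18 in red and the other libraries in grey. CK0 replicate 1 stands highest on the left with 5.33%.

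Of 3073 KO sums tested, 1509 (49.1%) were called, with 771 (25.1%) higher and 738 (24.0%) lower on day 18. The counts of the gene lists below are to be read beside these shares. The unadjusted p was under 0.05 for 1971 KO sums. In 2479 KO sums (80.7%) the libraries of one day both lay above those of the other, with 39.9% above and 40.8% below CK0. The KO sums of the 2 libraries of a day correlated at 0.979 in CK0 and 0.984 in CK18 across genes, and those of different days at 0.838 to 0.859. These correlations are across KO sums, which are not independent replicates. The split between higher and lower depends on the scaling: with FPKM as deposited, 325 KO sums were called higher and 1366 lower. The median log2 fold change of all KO sums was −0.09 with scaling and −1.0 as deposited, and the log2 fold changes below are as fitted, without subtracting that median. Leaving out 1 library at a time, 1361 to 1531 KO sums were called. With the factors of the unigenes in place of those of the KO sums, 657 were higher and 857 lower.

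**Figure D2:**
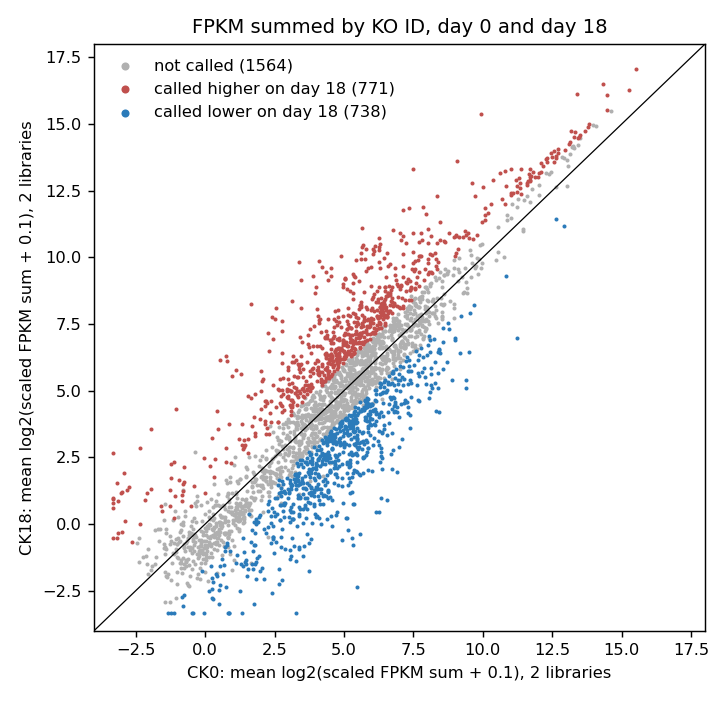
KO sums on day 0 and day 18. Each point is 1 of 3073 KO sums, with the mean of log2(scaled FPKM sum + 0.1) over the 2 CK0 libraries on the x axis and over the 2 CK18 libraries on the y axis. The diagonal marks equal levels, with 771 called KO sums above it in red and 738 below it in blue.

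The KO sums with the largest increases were led by 12-oxophytodienoic acid reductase and by a subunit of the plastid ATP synthase. OPR (K05894), which in plants acts in jasmonate synthesis, was at 3.64 and 4.47 FPKM in the CK0 libraries and at 204.6 and 221.6 FPKM in the CK18 libraries. ATPF1D (K02113), the delta subunit of the plastid ATP synthase, was at 13.9 and 13.3 FPKM in CK0 and at 600.6 and 643.1 FPKM in CK18. The log2 fold changes were 6.61 ± 0.55 and 6.44 ± 0.18, with adjusted p of 3.89e-06 and 5.21e-09 by limma. No overlap between the libraries of the 2 days was a condition for this ranking, as for the decreases below. Of the 10 largest increases, 5 were ribosomal proteins of bacterial type, namely RP-L10, RP-L34, RP-L35, RP-S13 and RP-L29. The others were fabI, an enoyl reductase of fatty acid synthesis, rimO, which in bacteria modifies a ribosomal protein, and UPF3, a factor of nonsense-mediated decay of mRNA. UPF3 was at 20.4 and 24.6 FPKM in CK0 and at 450.3 and 928.3 FPKM in CK18. A single unigene held 90.4% of the CK18 sum of UPF3, and SwissProt described it as a hydroxylamine reductase, so that the KO name and the protein description of that unigene differed.

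The 10 largest decreases had mixed functions, and the largest of them, MRPL41, is given in the next paragraph. EZH2 (K11430), a histone methyltransferase that silences genes, was at 87.6 and 31.7 FPKM in CK0 and at 0.28 and 0.40 FPKM in CK18, and fell by 6.10 ± 0.66 on the log2 scale. CDK7 (K02202), a kinase that activates cell cycle kinases and RNA polymerase II, was at 48.9 and 53.8 FPKM in CK0 and at 0.39 and 0.43 FPKM in CK18. It fell by 5.81 ± 0.33 with an adjusted p of 2.7e-07. Both KO sums were low in each CK18 library, and no overlap with CK0 was a condition for being named among the 10. ATM (K04728), a kinase that senses DNA breaks, fell from 47.6 and 34.4 FPKM to 0.35 and 0.44 FPKM. SMARCA3 (K15711), a chromatin remodeller, fell from 117.3 and 132.5 FPKM to 0.67 and 2.26 FPKM. DNAJC13, a co-chaperone of membrane traffic in animals, fell from 84.6 and 103.4 FPKM to 0.46 and 1.67 FPKM. K09955, an uncharacterized protein, and kdsA, an enzyme for a bacterial and plant cell wall sugar, were also among the 10.

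A few of these decreases rest on values at or near 0 or on short unigenes. MAD1L (K06638), a protein of the spindle checkpoint, was at 18.99 and 8.55 FPKM in CK0 and was listed at 0 in both CK18 libraries. MRPL41, a protein of the mitochondrial ribosome, was at 62.0 and 55.2 FPKM in CK0 and at 0 and 0.19 FPKM in CK18, and was not called without CK18 replicate 1, with an adjusted p of 0.0722 by limma. NDUFAF7, an assembly factor of respiratory complex I, was at 116.3 and 88.1 FPKM in CK0 and at 0.58 and 1.34 FPKM in CK18. Without unigenes under 500 bp, its log2 fold change was −0.52 with an adjusted p of 0.448. MAD1L, MRPL41, kdsA and psbS could not be tested without either CK0 library, since only 1 library with the minimum FPKM then remained.

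**Figure D3:**
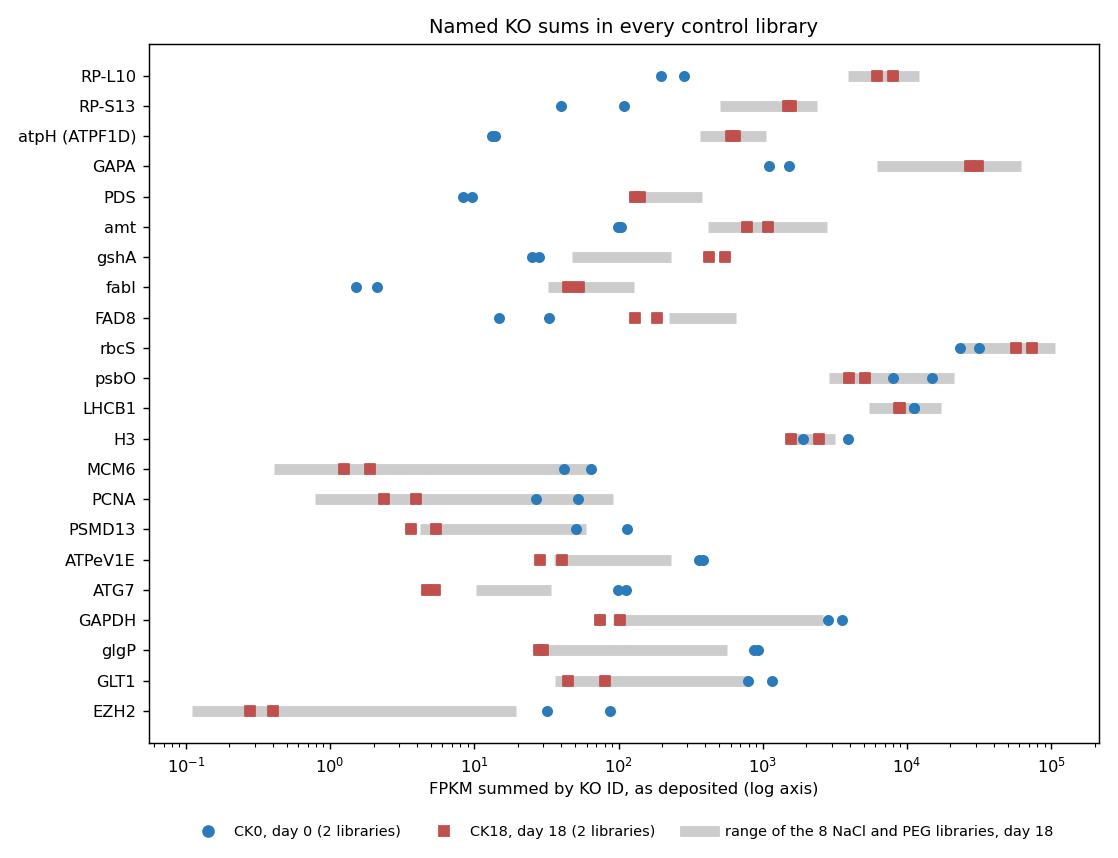
Levels of 22 named KO sums. The x axis is the FPKM summed by KO ID as deposited, on a log axis, with 2 CK0 libraries as blue circles, 2 CK18 libraries as red squares, and grey bars for the range of the 8 day-18 libraries with NaCl or PEG. GAPA moves from 1105 and 1522 FPKM on day 0 to 31293 and 27369.9 FPKM on day 18, while EZH2 moves from 87.6 and 31.7 FPKM to 0.28 and 0.40 FPKM.

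With scaling, KO sums of translation were higher on day 18, with the highest list median in the ribosomes of the organelles. Of 46 organelle-type ribosomal proteins tested, which belong to the ribosomes of chloroplast and mitochondrion, 33 were called higher and 1 lower, and their median log2 fold change was 3.81, against −0.09 for all KO sums. With FPKM as deposited, 30 were higher and 3 lower with a median of 2.88. Their summed FPKM was 4221 and 3441 in the CK0 libraries and 40593 and 36315 in the CK18 libraries. RP-L10 (K02864) was at 282.7 and 198.0 FPKM in CK0 and at 7989 and 6178 FPKM in CK18, and rose by a log2 fold change of 5.82 ± 0.15 with an adjusted p of 4.56e-09. RP-L4 (K02926) was at 654.7 and 765.9 FPKM in CK0 and at 9322 and 8220.5 FPKM in CK18, a log2 fold change of 4.56 ± 0.19. Every CK18 library lay far above both CK0 libraries in these KO sums. RP-S13 rose from 108.9 and 39.6 FPKM to 1578 and 1492 FPKM, and RP-L29 rose from 25.2 and 23.1 FPKM to 597.8 and 522.1 FPKM.

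RP-L36 was the member of this list that was called lower. It was at 10.7 and 8.82 FPKM in CK0 and at 0.15 and 0.52 FPKM in CK18 and fell by 3.84 ± 0.50, but SwissProt described its leading unigene as an oxidoreductase (RP-L36 was chosen as an example after its value was seen). The list holds KO IDs with a bacterial name and leaves out those named for the mitochondrial ribosome alone, such as MRPL41 above. Of 8 of these that were tested, counted after their values were seen, 3 (MRPL41, MRPL45 and MRPS23) were called lower and 0 higher by limma. Short unigenes carried part of the increases. Without unigenes under 500 bp, 26 were called higher and 1 lower with a median of 2.30, RP-L4 was at 0.15 and RP-L24 at −0.06 on the log2 scale, and RP-L10 and RP-S13 could not be tested.

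The ribosomal proteins of the cytosol moved less, and their direction rests on the scaling. Of 78 tested, 51 were called higher and 0 lower with a median log2 fold change of 1.09, but with FPKM as deposited 1 was higher and 4 lower with a median of 0.16, after quantile normalization the median was −0.06, and without unigenes under 500 bp it was −0.32. Their share of all FPKM was 32.5% and 23.3% in the CK0 libraries and 22.5% and 20.9% in the CK18 libraries. RP-L37e, a protein of the large subunit and the highest of the list, was at 72251 and 37472 FPKM in CK0 and at 63552 and 48327 FPKM in CK18. The 2 days overlapped in FPKM as deposited but not after scaling, and the log2 fold change of 1.02 ± 0.19 fell under the limit without CK0 replicate 2 (0.74) or without CK18 replicate 1 (0.84). RP-S24e, of the small subunit, was at 50253 and 21909.5 FPKM in CK0 and at 35922 and 28985 FPKM in CK18 and was not called. RP-S20e was the member with the largest change, from 4058 and 3114 FPKM in CK0 to 7307 and 6944 FPKM in CK18, and rose by 1.94 ± 0.12. RP-L27e was at 26880 and 33845 FPKM in CK0 and at 43681 and 52168 FPKM in CK18, and its log2 fold change turned from 1.59 to −1.03 without unigenes under 500 bp.

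Factors that build ribosomes and charge tRNA were also higher. Of 98 ribosome biogenesis factors, 64 were called higher and 1 lower with a median log2 fold change of 1.47, and 24 were higher and 12 lower as deposited with a median of 0.54. NOP1, the fibrillarin that methylates ribosomal RNA, was at 466.4 and 394.0 FPKM in CK0 and at 1215 and 876.9 FPKM in CK18, a log2 fold change of 2.2 ± 0.18. NOP53, a nucleolar factor of the large subunit, rose from 10.2 and 7.60 FPKM to 66.2 and 52.8 FPKM, a log2 fold change of 3.66 ± 0.25. The RNA helicases DDX5 and DBP3 rose by 1.83 and 1.64. Of 14 subunits of RNA polymerases I and III, which transcribe ribosomal RNA and tRNA genes, 7 were called higher and 0 lower, and 3 were higher and 2 lower as deposited. RPA1, the large subunit of RNA polymerase I, was at 151.8 and 117.9 FPKM in CK0 and at 285.9 and 248.5 FPKM in CK18. RPA2 rose by 2.2 ± 0.23, and RPA43 by 2.08, although SwissProt described the leading unigene of RPA43 as a chromatin accessibility protein.

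Of 21 aminoacyl-tRNA synthetases, which load amino acids onto tRNA, 16 were called higher and 0 lower with a median of 1.52 (as deposited 5 higher, 0 lower and a median of 0.59). TARS, the threonyl-tRNA synthetase, was at 101.8 and 76.3 FPKM in CK0 and at 289.0 and 226.5 FPKM in CK18, and NARS, for asparagine, was at 42.0 and 25.6 FPKM in CK0 and at 133.1 and 100.9 FPKM in CK18. Their log2 fold changes were 2.47 ± 0.17 and 2.75 ± 0.19, and that of PARS, for proline, was 2.09 ± 0.15. Among 37 translation factors, 16 were called higher and 1 lower with a median of 0.73, and 4 were higher and 9 lower as deposited with a median of −0.21. EEF1A, which brings tRNA to the ribosome, was at 64819 and 59338 FPKM in CK0 and at 100306 and 91035 FPKM in CK18. EEF2, the translocase, was at 11715 and 12684 FPKM in CK0 and at 19879 and 17773 FPKM in CK18. Both rose by a log2 fold change of 1.56, and by 0.62 as deposited, which is under the limit. EIF5A rose from 2584 and 2161 FPKM to 7378 and 6228 FPKM, a log2 fold change of 2.45 that turned to −1.01 without unigenes under 500 bp.

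**Figure D4:**
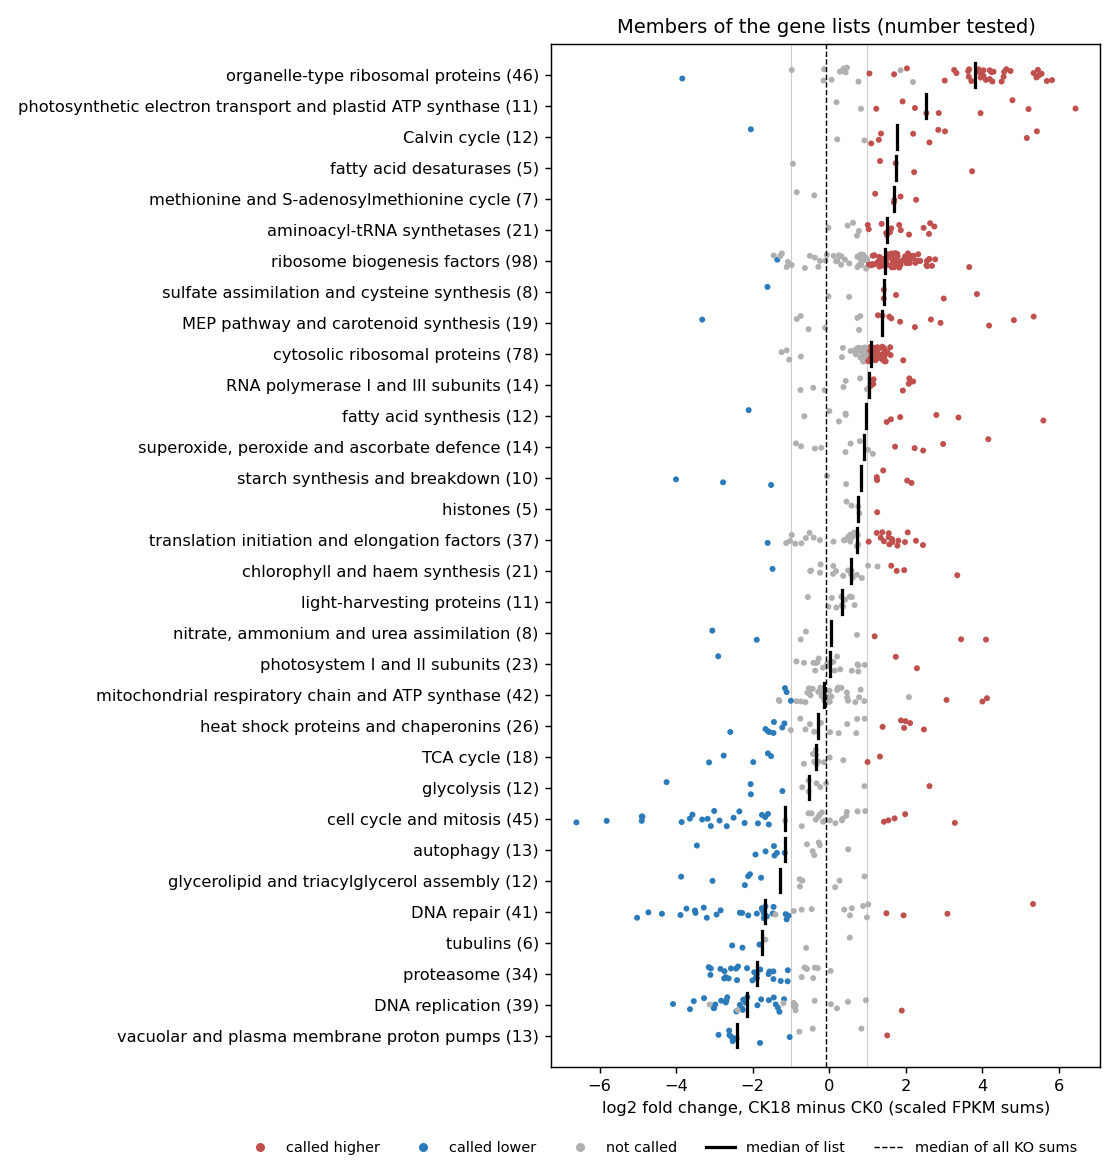
Members of 32 gene lists. Each point is a KO sum, placed by its log2 fold change (CK18 minus CK0, scaled FPKM sums) and coloured red if called higher, blue if called lower and grey if not called. Black bars are list medians, from 3.81 in organelle-type ribosomal proteins to −2.42 in proton pumps, the dashed line is the median of all KO sums at −0.09, and the number tested is in parentheses.

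In photosynthesis, electron carriers and the plastid ATP synthase were higher on day 18, while for most photosystem and antenna proteins no change was called. Of 11 KO sums of electron transport and plastid ATP synthase, 9 were called higher and 0 lower with a median log2 fold change of 2.54, and 7 were higher and 0 lower as deposited with a median of 1.61. petC, the iron-sulfur subunit of the cytochrome b6f complex, was at 2193 and 1364 FPKM in CK0 and at 5975 and 4651 FPKM in CK18 and rose by 2.54 ± 0.19. Plastocyanin (petE), the copper protein that passes electrons to photosystem I, rose from 451.9 and 479.9 FPKM to 1501 and 2106 FPKM, a log2 fold change of 2.86 ± 0.30. ATPF1G, the gamma subunit of the ATP synthase, was at 505.6 and 359.4 FPKM in CK0 and at 3858 and 3119 FPKM in CK18, a log2 fold change of 3.96 ± 0.19. Adjusted p by limma for these KO sums lay between 5.21e-09 (ATPF1D) and 1.64e-05 (petE). Without unigenes under 500 bp, petC and petE could not be tested, and 7 KO sums of this list were called higher.

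Of 23 subunits of photosystems I and II, 2 were called higher and 1, psbS, lower with a median of 0.03, and as deposited 1 was higher and 8 lower with a median of −0.90. Their summed FPKM was 24218 and 16490 in CK0 and 9656 and 8546 in CK18. psbO, the protein that stabilises the oxygen-evolving cluster, was at 14919.8 and 8023 FPKM in CK0 and at 5113 and 3972 FPKM in CK18. Its CK18 values lay below both CK0 values, but its scaled log2 fold change of −0.35 ± 0.50 had an adjusted p of 0.57, and as deposited it was −1.28 with an adjusted p of 0.0468. Without unigenes under 500 bp it was −3.59 with an adjusted p of 0.000757. psbR was at 3530.0 and 3909 FPKM in CK0 and at 1406 and 1527 FPKM in CK18 and was not called with scaling, while as deposited its log2 fold change was −1.34 with an adjusted p of 0.0124. psbS, which acts in the heat dissipation of excess light in plants, was at 0.74 and 0.98 FPKM in CK0 and listed at 0 in both CK18 libraries. Of 11 light-harvesting proteins, which form the antennae, 0 were called by limma, as deposited 1 was lower, and after quantile normalization 4 were lower. Their summed FPKM was 27944 and 26399 in CK0 and 20087 and 18829 in CK18. LHCB1 was at 11251 and 11145 FPKM in CK0 and at 8875 and 8864 FPKM in CK18, with a log2 fold change of 0.60 ± 0.27 that was −0.34 as deposited, −0.49 after quantile normalization and −2.20 without unigenes under 500 bp.

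The Calvin cycle, which fixes CO2 into sugar phosphates, was higher on day 18 in 9 of 12 KO sums and lower in 1, with a median log2 fold change of 1.78 (as deposited 6 higher, 1 lower and a median of 0.86). GAPA (K05298), the plastid glyceraldehyde-3-phosphate dehydrogenase that uses NADPH, was at 1105 and 1522 FPKM in CK0 and at 31293 and 27369.9 FPKM in CK18, and rose by 5.43 ± 0.34 with an adjusted p of 5.71e-07. Without unigenes under 500 bp it could not be tested. Sedoheptulose-bisphosphatase (K01100), which acts in regenerating the CO2 acceptor, was at 37.9 and 40.2 FPKM in CK0 and at 747.7 and 725.0 FPKM in CK18, and phosphoribulokinase (PRK), which makes that acceptor, was at 42.3 and 39.9 FPKM in CK0 and at 166.3 and 146.1 FPKM in CK18. Both were taken as examples after their values were seen, and their log2 fold changes were 5.17 ± 0.28 and 2.85 ± 0.29. The libraries of the 2 days were far apart in all 3. The small subunit of Rubisco (rbcS), the enzyme that fixes CO2, was at 23153 and 31419 FPKM in CK0 and at 56519 and 74069.7 FPKM in CK18, a log2 fold change of 2.19 ± 0.24. Transketolase rose from 303.6 and 395.3 FPKM to 1575 and 1393 FPKM.

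Fructose-bisphosphate aldolase (ALDO), which serves both the Calvin cycle and glycolysis, was at 1408 and 1302 FPKM in CK0 and at 4152 and 4595 FPKM in CK18. Its log2 fold change of 2.62 ± 0.20 was −2.26 without unigenes under 500 bp and 0.99 when FPKM were weighted by length. The leading unigene of ALDO was described as cytosolic in CK0, where it held 53.4% of the sum, and another, described as chloroplastic, held 63.7% in CK18. The KO sum therefore joins proteins that did not move alike. Triosephosphate isomerase (TPI), named as an example after its value was seen, was at 251.5 and 175.4 FPKM in CK0 and at 28.2 and 25.1 FPKM in CK18 and fell by 2.05 ± 0.27.

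Pigment synthesis was higher in the carotenoid branch. Of 19 KO sums of the MEP pathway, which makes the isoprenoid units in the chloroplast, and of carotenoid synthesis, 11 were called higher and 1 lower with a median of 1.39, and as deposited 6 were higher and 4 lower with a median of 0.46. Of the enzymes that turn phytoene into lycopene, 3 rose. Phytoene desaturase (PDS, an example chosen after its value was seen) was at 9.68 and 8.34 FPKM in CK0 and at 141.4 and 130.1 FPKM in CK18, a log2 fold change of 4.83 ± 0.22. Zeta-carotene desaturase (ZDS) was at 89.3 and 56.0 FPKM in CK0 and at 570.3 and 792.3 FPKM in CK18, a log2 fold change of 4.18 ± 0.22. Zeta-carotene isomerase (Z-ISO) was at 0.38 and 0.66 FPKM in CK0 and at 16.1 and 11.5 FPKM in CK18, a log2 fold change of 5.35 ± 0.39. Each of these was high in both CK18 libraries and low in both CK0 libraries. The isomerase crtISO, at the end of that route, was at 25.5 and 16.2 FPKM in CK0 and at 7.48 and 7.13 FPKM in CK18 and was not called, with a log2 fold change of −0.54. It was named after its value was seen. crtZ, the beta-carotene hydroxylase that leads to xanthophylls, was at 405.5 and 604.3 FPKM in CK0 and at 140.6 and 170.3 FPKM in CK18. It was not called with scaling, with a log2 fold change of −0.74, but was called as deposited (−1.68) and without CK0 replicate 1 (−1.20). Of 21 KO sums of chlorophyll and haem synthesis, 4 were called higher and 1 lower with a median of 0.57, and 2 were higher and 5 lower as deposited with a median of −0.36. DVR, which reduces the vinyl group of divinyl chlorophyllide, rose from 15.7 and 13.6 FPKM to 63.6 and 96.9 FPKM, and hemA, the first enzyme of the pathway, rose from 50.3 and 48.2 FPKM to 93.2 and 82.8 FPKM.

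Most called KO sums of DNA replication, the cell cycle and DNA repair were lower on day 18. Of 39 KO sums of DNA replication, 26 were called lower and 1 higher with a median log2 fold change of −2.14, and as deposited 34 were lower and 0 higher. Their summed FPKM was 1813 and 1694 in the CK0 libraries and 306.8 and 340.0 in the CK18 libraries. MCM6, a subunit of the helicase that opens origins of replication, was at 64.0 and 41.6 FPKM in CK0 and at 1.24 and 1.89 FPKM in CK18 and fell by 4.08 ± 0.50 with an adjusted p of 4.89e-05. MCM5, of the same helicase, was at 176.9 and 252.2 FPKM in CK0 and at 34.5 and 39.9 FPKM in CK18. The sliding clamp PCNA, an example chosen after its value was seen, was at 52.5 and 26.9 FPKM in CK0 and at 2.37 and 3.93 FPKM in CK18 and fell by 2.66 ± 0.38. All CK18 values of these KO sums lay below both CK0 values. POLD1, the catalytic subunit of DNA polymerase delta, fell by 1.34 ± 0.23, and POLE2 had a log2 fold change of −0.87 with an adjusted p of 0.0687. When FPKM were weighted by length, MCM5 (−0.96) and POLD1 (−0.91) came just under the limit. POLA2, a subunit of DNA polymerase alpha, was the member called higher, with 12.5 and 10.2 FPKM in CK0 and 24.9 and 19.9 FPKM in CK18.

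Of 45 KO sums of the cell cycle and mitosis, 22 were called lower and 5 higher with a median of −1.15, and 32 were lower and 1 higher as deposited. The median was −0.41 without CK0 replicate 1, with 15 lower, and −0.56 without CK0 replicate 2, with 16 lower. They included CDK7 and MAD1L, given above. NEK, a family of kinases of mitosis and cilia, went the other way, from 189.5 and 211.6 FPKM in CK0 to 1000.4 and 1046 FPKM in CK18, a log2 fold change of 3.28 ± 0.21. SKP1, part of a ubiquitin ligase of the cell cycle, was at 565.7 and 294.2 FPKM in CK0 and at 156.0 and 154.5 FPKM in CK18 and was not called with scaling, with a log2 fold change of −0.46 that was 0.55 without unigenes under 500 bp. Of 6 tubulins and tubulin-associated proteins, 3 were called lower and 0 higher with a median of −1.74, which was −1.16 without CK0 replicate 1 and −1.13 without CK18 replicate 1. TUBG, the gamma tubulin of spindle poles, was at 62.2 and 44.3 FPKM in CK0 and at 6.92 and 8.62 FPKM in CK18, and its partner TUBGCP2 was at 9.27 and 7.68 FPKM in CK0 and at 0.36 and 1.33 FPKM in CK18. They fell by 1.82 ± 0.25 and 2.53 ± 0.50. The abundant TUBB was at 1241 and 803.8 FPKM in CK0 and at 786.0 and 735.0 FPKM in CK18, and was not called, with a log2 fold change of 0.54 that was −0.39 as deposited.

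Of 5 histones, 1 was called higher and 0 lower, and 0 either way as deposited. H3, the core histone with the highest level, was at 3898 and 1901 FPKM in CK0 and at 2454 and 1558 FPKM in CK18. The 2 days overlapped with and without scaling, and the log2 fold change of 0.46 ± 0.26 had an adjusted p of 0.156. The linker histone H1_5 was at 260.6 and 241.7 FPKM in CK0 and at 296.6 and 332.5 FPKM in CK18, a log2 fold change of 1.26 that was 0.32 as deposited.

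Of 41 DNA repair KO sums, 27 were called lower and 4 higher with a median of −1.66, and 31 were lower and 3 higher as deposited. Their summed FPKM was 1784 and 1487 in CK0 and 768 and 753 in CK18. After scaling, the sum moved less, with 1198 and 1264 in CK0 and 1103 and 1090 in CK18. MSH5, known from meiotic crossing over, was at 1.37 and 3.35 FPKM in CK0 and at 50.4 and 46.2 FPKM in CK18 and rose by 5.33 ± 0.49. UBE2A, a ubiquitin-conjugating enzyme of damage tolerance, rose by 1.5 ± 0.18. PMS2, of mismatch repair, was at 67.7 and 70.3 FPKM in CK0 and at 127.4 and 152.3 FPKM in CK18, with a log2 fold change of 1.94 that turned to −1.47 when only unigenes with a green alga as best hit were summed. A single unigene with a best hit outside the green algae held 89.2% of its CK18 sum.

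On day 18, KO sums of the proteasome were lower, the protease that degrades proteins tagged with ubiquitin. Of 34 subunits, 26 were called lower and 0 higher with a median log2 fold change of −1.89, and 33 were lower and 0 higher as deposited. Their summed FPKM was 5997 and 4078 in the CK0 libraries and 870.0 and 958.8 in the CK18 libraries. PSMD2, the scaffold of the regulatory particle, was at 633.8 and 476.6 FPKM in CK0 and at 40.8 and 53.2 FPKM in CK18 and fell by 2.63 ± 0.21. PSMB7, a catalytic subunit of the core, was at 594.3 and 334.9 FPKM in CK0 and at 37.6 and 32.3 FPKM in CK18, and PSMD13, of the lid, was at 114.3 and 50.6 FPKM in CK0 and at 3.64 and 5.41 FPKM in CK18. They fell by 2.74 ± 0.32 and 3.15 ± 0.31. PSMC4, an ATPase of the base, was at 497.3 and 360.5 FPKM in CK0 and at 147.2 and 149.7 FPKM in CK18 and was not called with scaling, with a log2 fold change of −0.58, but as deposited it was called at −1.51.

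Of 13 autophagy KO sums, the route by which cytoplasm is delivered to the vacuole, 7 were called lower and 0 higher with a median of −1.16, 12 were lower and 0 higher as deposited, and 3 were lower after quantile normalization. Without CK0 replicate 2 the median was −0.62, with 6 lower. ATG7, the enzyme that activates ubiquitin-like proteins of autophagy, was at 99.9 and 112.5 FPKM in CK0 and at 4.71 and 5.30 FPKM in CK18 and fell by 3.46 ± 0.29. ATG3, the next enzyme of that conjugation, was at 347.6 and 216.4 FPKM in CK0 and at 49.1 and 63.2 FPKM in CK18. GABARAP, the ATG8 protein that both enzymes act on, was at 547.4 and 416.6 FPKM in CK0 and at 196.5 and 227.5 FPKM in CK18, with a log2 fold change of −0.24 ± 0.17 that was not called.

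The vacuolar proton pump fell together with these lists, while the pump of the plasma membrane rose. Of 13 KO sums of both, 9 were called lower and 1 higher with a median of −2.42, and as deposited 11 were lower and 0 higher. ATPeV1E, in the stalk of the vacuolar pump, was at 386.8 and 360.2 FPKM in CK0 and at 28.5 and 40.7 FPKM in CK18, and ATPeV1D was at 144.3 and 80.8 FPKM in CK0 and at 6.71 and 8.53 FPKM in CK18. They fell by 2.52 ± 0.20 and 2.89 ± 0.23. ATPeV1H, a regulatory subunit of the same pump, was at 823.4 and 665.2 FPKM in CK0 and at 789.3 and 612.7 FPKM in CK18 and was not called, with a log2 fold change of 0.84 that was −0.09 as deposited. The H+-ATPase of the plasma membrane (K01535) was at 1381 and 1485 FPKM in CK0 and at 2051 and 2254 FPKM in CK18, a log2 fold change of 1.52 ± 0.17 that was 0.59 as deposited and then under the limit.

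Of 26 heat shock proteins and chaperonins, 6 (23.1%) were called higher and 8 (30.8%) lower, near the shares of 25.1% and 24.0% over all KO sums. Their median was −0.30, which was −0.16 without CK0 replicate 1, −0.030 without CK18 replicate 2 and 0.15 without unigenes under 500 bp, and 4 were higher and 14 lower as deposited. CCT1 and CCT8, subunits of the same cytosolic chaperonin, moved in opposite directions. CCT1 was at 148.2 and 153.1 FPKM in CK0 and at 12.1 and 14.2 FPKM in CK18 and fell by 2.58 ± 0.22. CCT8, an example chosen after its value was seen, was at 81.2 and 38.5 FPKM in CK0 and at 125.2 and 212.7 FPKM in CK18, and rose by 2.48 ± 0.45, with another leading unigene on each day. HSPA5, the chaperone of the endoplasmic reticulum, was at 284.4 and 220.0 FPKM in CK0 and at 456.7 and 597.6 FPKM in CK18 and rose by 1.99 ± 0.39. HSPA1_8, the cytosolic chaperone of the same family, was at 2041 and 2589 FPKM in CK0 and at 686.0 and 742.7 FPKM in CK18. It was not called with scaling (−0.75), was called as deposited (−1.69), and was at 0.65 without unigenes under 500 bp.

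In central carbon metabolism, single enzymes of glycolysis and the TCA cycle fell while most KO sums of these pathways were not called with scaling. Of 12 glycolytic KO sums, 4 (33.3%) were called lower and 1 (8.33%), ALDO, higher. As deposited, 10 were lower and 1 higher. The scaled median was −0.54. Without CK0 replicate 2 the median was −0.34. GAPDH (K00134), the glycolytic glyceraldehyde-3-phosphate dehydrogenase, was at 3537 and 2829 FPKM in CK0 and at 73.96 and 102.7 FPKM in CK18 and fell by 4.25 ± 0.27 with an adjusted p of 5.71e-07. GAPA, the form of the Calvin cycle, moved in the other direction, as given above. gpmI, a phosphoglycerate mutase, was at 554.1 and 398.9 FPKM in CK0 and at 50.9 and 69.3 FPKM in CK18 and fell by 2.05 ± 0.21. Of 18 KO sums of the TCA cycle, 5 (27.8%) were called lower and 2 (11.1%) higher. Over all KO sums these shares were 24.0% and 25.1%. The median of the TCA list was −0.34 (−0.52 without CK0 replicate 1), and 14 were lower and 0 higher as deposited. LSC1, the alpha subunit of succinyl-CoA synthetase, was at 232.9 and 189.4 FPKM in CK0 and at 10.5 and 14.7 FPKM in CK18 and fell by 3.14 ± 0.20. MDH1, a malate dehydrogenase named as an example after its value was seen, fell from 775.4 and 755.9 FPKM to 51.7 and 67.9 FPKM. Fumarase (fumC) and citrate synthase (CS), the highest of the list, were not called with scaling, with log2 fold changes of −0.34 and −0.31, and were called lower as deposited, at −1.27 and −1.24.

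Of 42 KO sums of the mitochondrial respiratory chain and ATP synthase, 3 were called higher and 3 lower with a median of −0.13, and as deposited 3 were higher and 21 lower with a median of −1.06. Between 1 and 9 of them were called with 1 library left out, 1 of them without CK18 replicate 1 and 5 without CK18 replicate 2, and the median was 0.034 without unigenes under 500 bp. ATPeF1G, the gamma subunit of the mitochondrial ATP synthase, was at 1349.9 and 936.7 FPKM in CK0 and at 535.1 and 534.0 FPKM in CK18, a log2 fold change of −0.14 ± 0.13 that was not called. The mitochondrial enzyme and the plastid enzyme (ATPF1G) were thus at different changes on the same scale, although the difference itself was not tested. ND2, a subunit of complex I that mitochondria usually encode, was listed at 0 in both CK0 libraries and at 0.84 and 1.54 FPKM in CK18.

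Starch enzymes moved in both directions. Of 10, 5 were called higher and 3 lower with a median of 0.84, which was −0.09 as deposited, where 2 were higher and 3 lower, and −0.03 after quantile normalization. WAXY, the starch synthase bound to granules, was at 323.2 and 408.3 FPKM in CK0 and at 823.0 and 744.8 FPKM in CK18 and rose by 2.04 ± 0.27. Starch phosphorylase (K00688), which releases glucose phosphate from starch, was at 871.2 and 919.6 FPKM in CK0 and at 28.2 and 30.1 FPKM in CK18 and fell by 4.0 ± 0.17 with an adjusted p of 3.74e-08. Beta-amylase, another enzyme of breakdown, was at 385.4 and 474.6 FPKM in CK0 and at 513.5 and 549.5 FPKM in CK18. Its log2 fold change of 1.24 was 0.31 as deposited and 0.93 without CK0 replicate 1, both under the limit.

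Among 8 KO sums of nitrogen assimilation, 3 were called higher and 2 lower with a median of 0.06 that was −0.67 as deposited, where 2 were higher and 3 lower. The median rests on single libraries, with 0.63 without CK0 replicate 1, 0.035 without CK0 replicate 2, 0.86 without CK18 replicate 1 and 0.48 without CK18 replicate 2. Ammonium transporters (amt, K03320) were at 104.7 and 99.8 FPKM in CK0 and at 772.7 and 1093 FPKM in CK18 and rose by 4.1 ± 0.37. Nitrate reductase (K10534), which makes nitrite from nitrate and is an example chosen after its value was seen, was at 20.2 and 25.4 FPKM in CK0 and at 104.2 and 162.7 FPKM in CK18 and rose by 3.45 ± 0.42. Both were high in each CK18 library. GLT1, the glutamate synthase that uses NADH or NADPH, was at 788.1 and 1151 FPKM in CK0 and at 44.7 and 80.6 FPKM in CK18 and fell by 3.05 ± 0.32. Glutamine synthetase (glnA), which fixes ammonium, was at 1042 and 943.9 FPKM in CK0 and at 729.2 and 1015 FPKM in CK18 and was not called, with 0.73 scaled and −0.20 as deposited. Its leading unigene differed between the days, with 60.4% of the CK18 sum in a unigene described as chloroplastic.

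Sulfur and methionine enzymes were higher for the most part. Of 8 KO sums of sulfate assimilation and cysteine synthesis, 5 were called higher and 1 lower with a median of 1.43, and 2 were higher and 1 lower as deposited with a median of 0.50. cysE, the serine acetyltransferase before cysteine, was at 61.5 and 50.6 FPKM in CK0 and at 490.5 and 370.2 FPKM in CK18 and rose by 3.86 ± 0.30. cysK, the cysteine synthase that uses its product, was at 1077 and 906.1 FPKM in CK0 and at 163.3 and 175.4 FPKM in CK18 and fell by 1.61 ± 0.24. The sulfate transporter SULTR4 rose by 1.75 and sulfate adenylyltransferase (sat) by 1.43, and as deposited both were under the limit. Of 7 KO sums of the methionine cycle, 5 were called higher and 0 lower with a median of 1.69, and 1 was higher and 2 lower as deposited. metB, the cystathionine synthase, rose from 127.6 and 106.9 FPKM to 334.5 and 262.3 FPKM. metK, which makes S-adenosylmethionine, was at 1142 and 825.7 FPKM in CK0 and at 1245 and 1103 FPKM in CK18, with a log2 fold change of 1.2 that was 0.27 as deposited and −0.64 without unigenes under 500 bp.

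Of 17 KO sums of proline, arginine and polyamine metabolism, 5 were called higher and 2 lower with a median of 0.03, and as deposited 4 were higher and 5 lower. Of 8 KO sums of glutathione synthesis and use, 3 were higher and 2 lower. Log2 fold changes ran from −2.72 to 4.91 in the first list and from −1.88 to 5.10 in the second, which had a median of 0.18. Only members with large increases are named here, and they do not stand for the lists. Glutamate-cysteine ligase (gshA, K01919), the first enzyme of glutathione synthesis, was at 28.1 and 25.3 FPKM in CK0 and at 544.8 and 424.3 FPKM in CK18 and rose by 5.10 ± 0.30. Ornithine aminotransferase (rocD) was at 226.6 and 375.2 FPKM in CK0 and at 1363 and 1343 FPKM in CK18, and ornithine decarboxylase (K01581), which leads to polyamines, was at 231.5 and 383.4 FPKM in CK0 and at 1241 and 1022 FPKM in CK18. aguB, of another route to putrescine, was at 5.58 and 6.87 FPKM in CK0 and at 92.5 and 107.3 FPKM in CK18. The log2 fold changes of these 3 were 3.15 ± 0.37, 2.85 ± 0.52 and 4.91 ± 0.36.

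In lipid metabolism, most desaturases were called higher, and 6 KO sums of the glycerolipid list lower. Of 12 KO sums of fatty acid synthesis, 6 were called higher and 1 lower with a median of 0.97, and 3 were higher and 2 lower as deposited with a median of 0.04. The median was 0.43 without CK18 replicate 1, 0.50 without CK18 replicate 2 and 0.38 with green algal hits alone. fabI (K00208) was at 2.11 and 1.52 FPKM in CK0 and at 52.9 and 44.9 FPKM in CK18 and rose by 5.6 ± 0.23. accA, a subunit of plastid acetyl-CoA carboxylase that commits carbon to fatty acids, was at 110.2 and 128.3 FPKM in CK0 and at 198.1 and 184.0 FPKM in CK18, a log2 fold change of 1.61 that was 0.68 as deposited. fabZ, a dehydratase of chain elongation, was at 121.2 and 127.1 FPKM in CK0 and at 52.4 and 32.9 FPKM in CK18 and was not called with scaling (−0.65), though it was as deposited (−1.58).

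Of 5 fatty acid desaturases, which place double bonds in membrane and storage lipids, 4 were called higher and 0 lower with a median of 1.74, and 2 were higher and 1 lower as deposited. FAD8, the plastid desaturase that makes alpha-linolenic acid in plants, was at 14.8 and 32.8 FPKM in CK0 and at 184.4 and 129.4 FPKM in CK18 and rose by 3.74 ± 0.40. FAD2, which makes linoleic acid in the endoplasmic reticulum, was at 96.1 and 118.1 FPKM in CK0 and at 178.0 and 195.6 FPKM in CK18, and FAD6, its plastid counterpart, was at 172.7 and 101.9 FPKM in CK0 and at 182.4 and 167.5 FPKM in CK18. Their log2 fold changes of 1.74 and 1.33 were 0.81 and 0.40 as deposited, under the limit.

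Of 12 KO sums of glycerolipid and triacylglycerol assembly, 6 were called lower and 0 higher with a median of −1.27, and 8 were lower and 0 higher as deposited. GPD1, which makes the glycerol backbone from a glycolytic intermediate, was at 353.1 and 253.1 FPKM in CK0 and at 34.6 and 37.6 FPKM in CK18 and fell by 2.12 ± 0.17. glpA, the glycerol-3-phosphate dehydrogenase linked to respiration, is in this list but is not an enzyme of assembly. It was at 116.3 and 102.1 FPKM in CK0 and at 2.94 and 5.02 FPKM in CK18 and fell by 3.87 ± 0.45. DGAT1, an acyltransferase that completes triacylglycerol and is an example chosen after its value was seen, was at 47.8 and 40.5 FPKM in CK0 and at 4.59 and 6.44 FPKM in CK18 and fell by 2.07 ± 0.24. MOGAT2, of another acyltransferase family, was at 321.9 and 338.9 FPKM in CK0 and at 427.6 and 252.9 FPKM in CK18. The 2 days overlapped as deposited but not after scaling, and MOGAT2 was not called, with log2 fold changes of 0.93 scaled and −0.01 as deposited.

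Among 14 KO sums of superoxide, peroxide and ascorbate defence, 5 were called higher and 0 lower with a median of 0.91, and as deposited 4 were higher and 4 lower with a median of −0.02. VTC2_5 (K14190), GDP-L-galactose phosphorylase of ascorbate synthesis, was at 78.2 and 103.3 FPKM in CK0 and at 911.0 and 778.8 FPKM in CK18 and rose by 4.16 ± 0.33. Superoxide dismutase of the iron and manganese family (SOD2) was at 782.6 and 565.8 FPKM in CK0 and at 198.4 and 184.1 FPKM in CK18 and was not called with scaling (−0.87) but was as deposited (−1.80). Catalase (katE) was at 372.0 and 360.0 FPKM in CK0 and at 461.4 and 242.2 FPKM in CK18. The 2 days overlapped as deposited but not after scaling, and katE was not called.

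For single unigenes, 65618 were tested and 24994 (38.1%) were called, 10499 (16.0%) higher and 14495 (22.1%) lower on day 18, and of 54795 annotated ones 20934 (38.2%) were called. As deposited, 7653 were higher and 20573 lower. These counts rest on each library more than those of the KO sums. Without CK0 replicate 1, 11097 of 47854 tested unigenes were called, with 7613 higher and 3484 lower, and without CK0 replicate 2, 12351 were called, with 8700 higher and 3651 lower. Without CK18 replicate 1 or 2, 15388 or 17547 were called. Fewer unigenes were tested in these fits, since 2 of the 3 remaining libraries had to reach the minimum FPKM.

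The unigenes with the largest increases were nearly absent from CK0, which a ranking by log2 fold change favours. The unigene described as a hydroxylamine reductase, which is the one that led UPF3, was at 0 in both CK0 libraries and at 392.4 and 853.9 FPKM in CK18. A pair of unigenes described as cathepsin L-like proteinases, which are cysteine proteases of lytic compartments, were at 0 and 0.75 FPKM and at 0.34 and 0.24 FPKM in CK0, and at 809.6 and 1056 FPKM and at 742.0 and 931.3 FPKM in CK18. Their log2 fold changes were 12.07 ± 0.91 and 11.64 ± 0.61, and these sizes depend in part on the 0.1 added before log2. The KO sums that hold this pair, K01366 and K01373, rose by 3.44 and 4.52. Summed over all unigenes with the same best NR hit, the pair rose by 4.35 and 5.83. Of the others, one was described as an NADPH:adrenodoxin oxidoreductase, at 0.06 and 0 FPKM in CK0 and at 278.6 and 526.1 FPKM in CK18. The last was described as an inosine triphosphate pyrophosphatase, at 0 in both CK0 libraries and at 267.9 and 282.2 FPKM in CK18. The sums by NR hit that hold the hydroxylamine reductase, oxidoreductase and pyrophosphatase unigenes rose by 6.86, 5.39 and 5.27.

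By the same ranking, which favours values near 0, the unigenes with the largest decreases were nearly absent from CK18. That of a mitochondrial NAD(P) transhydrogenase was at 68.6 and 110.8 FPKM in CK0, that of Xaa-Pro dipeptidase at 100.01 and 75.0 FPKM, and that of formate dehydrogenase at 54.2 and 109.0 FPKM, and all 3 were listed at 0 in both CK18 libraries. The best NR hit of the formate dehydrogenase unigene was from the red alga *Galdieria sulphuraria*, and the other 9 unigenes had a green alga as best hit. The NADP-dependent malic enzyme was at 94.5 and 74.2 FPKM in CK0 and at 0 and 0.04 FPKM in CK18. The unigene of 221 bp that leads NDUFAF7 was at 113.8 and 85.0 FPKM in CK0 and listed at 0 in both CK18 libraries. The KO sums of the transhydrogenase (K00323) and of the malic enzyme (K00029) fell by 1.91 and 1.95, and both KO sums were still above 0 in the CK18 libraries, with 46.9 and 86.3 FPKM for NNT (K00323) and 27.6 and 31.5 FPKM for maeB (K00029).

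Unigenes of 1 KO ID often did not move together. Of 2589 KO sums with at least 2 tested unigenes, 562 (21.7%) held unigenes called in both directions. Among KO sums that rose the share was 31.1%, and among those that fell 7.94%. The unigene with the highest level was the same on both days in 2117 KO sums (72.4% of those with at least 2 unigenes). Nitrate reductase, cysE, CCT8, POLA2 and ALDO are among the named KO sums whose leading unigene differed.

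The compartment named in the SwissProt description went with the direction of the calls. Of 2643 tested unigenes described as chloroplastic, 636 (24.1%) were called higher and 499 (18.9%) lower, with a median log2 fold change of 0.09. Of 1707 described as mitochondrial, 175 (10.3%) were higher and 452 (26.5%) lower, with a median of −0.86. Of 365 described as vacuolar or V-type, 22 (6.03%) were higher and 144 (39.5%) lower, with a median of −1.39. The word V-type brings in unigenes of the vacuolar proton pump given above, so that the 2 results are not separate. Over all 34109 tested unigenes with a SwissProt description, 5112 (14.99%) were higher and 7582 (22.2%) lower with a median of −0.60. As deposited, 466 chloroplastic unigenes were higher and 707 lower, or 17.6% and 26.8%, against 10.6% and 32.0% over all described unigenes. Mitochondrial (128 and 642) and vacuolar ones (16 and 180) had more lower than higher calls as deposited too. Without CK0 replicate 1 or 2, mitochondrial unigenes had about as many higher as lower calls (10% and 9.27%, or 11.1% and 10.9%), against 15.1% higher and 7.64% lower, or 16.2% and 8.29%, over all described unigenes, and vacuolar ones were still lower in most calls (12 and 41, or 17 and 42). These are descriptions of the annotation of unigenes and not tests of a compartment.

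**Figure D5:**
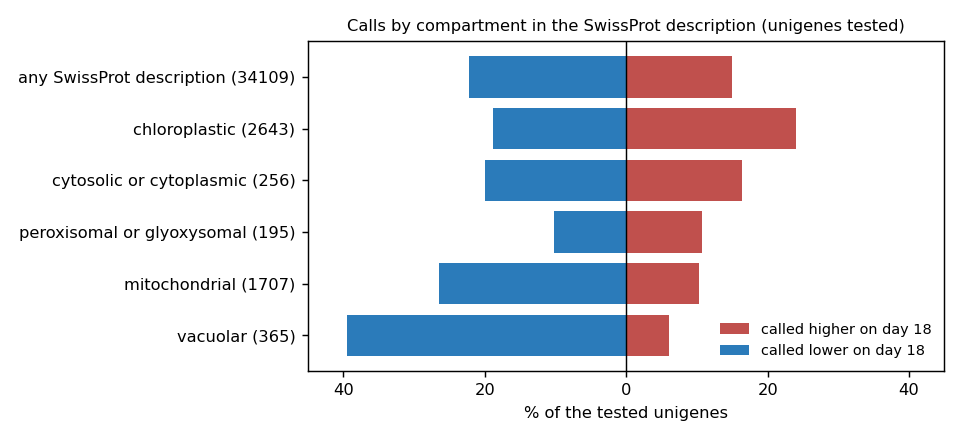
Calls by compartment. Bars give the % of tested unigenes called higher (red, right) and lower (blue, left) on day 18, by the compartment word in the SwissProt description, with the number tested in parentheses. Vacuolar unigenes, which include those described as V-type, have 39.5% lower and 6.03% higher, and chloroplastic ones 18.9% lower and 24.1% higher.

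The other day-18 libraries, grown with NaCl or PEG, show the range in which these KO sums lay at the same age, as deposited. For GAPA they ranged from 6222 to 61512 FPKM, for ATPF1D from 367.6 to 1050.03 FPKM and for RP-L10 from 3877 to 12138 FPKM, all above both CK0 libraries. PDS was between 117.9 and 381.4 FPKM, and OPR between 55.7 and 263.4 FPKM. For ATG7 the range was 10.3 to 34.2 FPKM, and for EZH2 0.11 to 19.3 FPKM, below both CK0 libraries. Other changes, both decreases and increases, were not shared in full by every day-18 library. MCM6 ranged from 0.41 to 66.7 FPKM and PCNA from 0.78 to 91.0 FPKM, which spans both days of the control. GLT1 ranged from 36.1 to 776.7 FPKM, and VTC2_5 from 75.4 to 225.7 FPKM, of which the upper end lies below both CK18 libraries. gshA likewise was at 47.6 to 232.8 FPKM, between CK0 and CK18. No test was made of their differences here.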

How the data were processed

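Total RNA was isolated from 12 samples, and mRNA libraries were sequenced. The authors assembled the reads with Trinity and grouped transcripts into unigenes with Corset. Reads were mapped back by Bowtie 2 within RSEM, and the authors deposited the resulting FPKM, rounded to 2 decimals. The submitters' processing notes also name DESeq and the mouse build mm9, which cannot apply to an alga. The mapped fragments of a library are not in the tables used, and RSEM splits fragments between unigenes. In unigenes of 600 to 619 bp, the most common value above 0 was 0.14, 0.14, 0.16 and 0.13 FPKM in CK0 replicates 1 and 2 and CK18 replicates 1 and 2, which may be the step of 1 fragment, but counts per unigene are unknown and no counting interval is given. No column of another series was found.

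FPKM were summed by KO ID. Libraries were brought to one scale by median-of-ratios factors, taken over all 12 (KO sums: 1.49 and 1.18 for CK0, 0.696 and 0.691 for CK18), 0.1 was added and log2 was taken. Features that reached 0.3 FPKM in 2 or more of the 4 CK0 and CK18 libraries were tested with limma 3.58.1 in R 4.3.3 (intensity trend, two-sided, 6 group means, 6 residual degrees of freedom) with Benjamini-Hochberg adjustment over all features tested. The test was tried on simulated data first. The simulation planted about as many increases as decreases, so it cannot show whether the scaling suits these data. Tables and figures were made with Python 3.11.15, pandas 2.3.3, numpy 2.4.6 and matplotlib 3.10.9.

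The 48 gene lists were written by KO name, and 47 entries whose description showed another protein were removed. The comparison and the lists were chosen with earlier results of these data known, and lists carry no test. KO sums named in the text come from this rule: the 10 largest increases and decreases among called KO sums with a mean of at least 10 FPKM in the higher group and no overlap, and in each list the 3 with the highest mean and the called one with the largest change. A further 11, and crtISO, are examples chosen after their values were seen. Unigenes named are the 5 largest increases and decreases with a SwissProt description by the same conditions. Green algae were recognised by the genus of the best NR hit. The alternatives were pseudocounts of 1 and 0.01, other filters, FPKM as deposited, quantile normalization, factors of the unigenes, only CK0 and CK18 in the fit, the replicate number as a block, the sequencing quality class as a covariate, a stricter adjusted p (0.01), calls made without a fold limit, each library left out, only unigenes with a green alga as best hit, and unigenes summed by NR hit. After seeing the data, sums without unigenes under 500 bp and sums weighted by length were added. One KO sum that the rule picked is not reported here. Sequences are not printed.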

Additional observations from a re-analysis of the deposited data

How the results depend on the processing

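With FPKM as deposited, 1691 KO sums were called (325 higher and 1366 lower), and under the other alternatives 1361 to 1879. Between 17 and 30 of the 48 lists had at least 50% of their tested members called in one direction, against 25. The number of unigenes called moved most: it was 15244 at an adjusted p under 0.01, 6572 of 17516 when unigenes were summed by NR hit, and 11097 to 17547 with 1 library left out. Of 142 KO sums picked by the rule or as examples, 89 kept their direction and side of the threshold as deposited, 90 after quantile normalization and 121 without unigenes under 500 bp.

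Some directions turned. As deposited, the log2 medians of the nitrogen (−0.67), starch (−0.0873), translation factor (−0.21), histone (−0.17), photosystem (−0.90), light-harvesting (−0.60), chlorophyll (−0.36) and superoxide defence (−0.022) lists and the values of RP-S24e (−0.0403), LHCB1 (−0.34), TUBB (−0.39), H3 (−0.48), dnaK (−0.0055), ATPeV1H (−0.0897), glnA (−0.20), MOGAT2 (−0.0061), acyl-CoA oxidase (−0.40) and katE (−0.13) were negative. After quantile normalization this held for cytosolic ribosomal proteins (−0.0608), nitrogen (−0.41), starch (−0.0283), histones (−0.21), photosystems (−0.58), light-harvesting proteins (−0.86), RP-L37e (−0.59), RP-S24e (−0.44), LHCB1 (−0.49), TUBB (−0.73), H3 (−0.66), dnaK (−0.33), ATPeV1H (−0.43), glnA (−0.54), metK (K00789) (−0.0025), MOGAT2 (K14457) (−0.0891), acyl-CoA oxidase (−0.65) and katE (−0.23). Without unigenes under 500 bp, cytosolic ribosomal proteins (−0.32), nitrogen (−0.15), RP-L27e (−1.03), RP-S24e (−0.82), RP-L24 (−0.0578), EIF5A (−1.01), LHCB1 (−2.20), ALDO (−2.26) and metK (−0.64) turned negative, and the chaperones (0.15), the respiratory chain (0.034), crtZ (0.27), SKP1 (0.55) and HSPA1_8 (0.65) positive. When FPKM were weighted by length, nitrogen was at −0.13, SKP1 at 0.47, HSPA1_8 at 0.34 and CS at 0.045. With the factors of the unigenes the nitrogen list was at −0.12 and the photosystems at −0.20, and the nitrogen list was at −0.0077 with a pseudocount of 0.01, and PMS2 was at −1.47 with green algal hits alone. The cause of these changes was not tested.

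The differences between replicates of CK0 and CK18 correlated at −0.0634 over KO sums and 0.0201 over unigenes. These correlations are across genes of the same few libraries. They therefore cannot decide whether the replicate numbers pair the libraries. With the replicate number as a block, 1515 KO sums and 24930 unigenes were called, and all 142 of these KO sums kept their call. Since counts per unigene are unknown, the precision of low KO sums could not be given.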

Other observations

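Of 6 KO sums of the oxidative pentose phosphate branch, 3 were called higher and 0 lower on day 18, and 1 was higher and 1 lower as deposited. Glutathione S-transferase (GST) was at 1006 and 891.5 FPKM in the CK0 libraries and at 1394 and 1259 FPKM in the CK18 libraries, with a log2 fold change of 1.42 that was 0.48 as deposited and 0.19 without unigenes under 500 bp. Of 12 KO sums of iron, copper and zinc transport, 4 (33.3%) were higher and 1 (8.33%) lower, against 25.1% and 24.0% over all KO sums. Of 23 KO sums of genes that green algae usually keep in the plastid genome, 14 could be tested, and 7 (50%) were higher and 0 lower. As deposited, 5 were higher and 2 lower, and with green algal hits alone 4 of 9 were higher. They held 0.0126% and 0.0124% of the FPKM in CK0 and 0.0110% and 0.0086% in CK18. Their summed FPKM of 337.3 and 309.2 in CK0 and 396 and 319.1 in CK18 overlapped as deposited.

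Of 10 KO sums of fatty acid beta-oxidation, 2 (20%) were called higher and 3 (30%) lower, near the 25.1% and 24.0% over all KO sums. As deposited, 0 were higher and 6 lower. ACAA1, the last enzyme of the cycle, rose from 708.4 and 969.5 FPKM in CK0 to 1477 FPKM in CK18 replicate 1, with 968.1 FPKM in replicate 2, so that the days overlapped as deposited, though not after scaling. Of 10 KO sums of photorespiration, 1 (10%) was higher and 2 (20%) lower. Of 7 KO sums of the circadian clock and light receptors, 0 were called by limma, and as deposited 0 were higher and 2 lower. Of 5 KO sums of intraflagellar transport and the axoneme, 1 was higher and 0 lower.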
